A study of Mus musculus with 16 samples.

Results

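The core circadian clock genes described here are Arntl, Clock, Npas2, Per1, Per2, Per3, Cry1, Nr1d1, Nr1d2 and Dbp. They were chosen by name, as the rows of the deposited count tables whose Ensembl identifier maps to these symbols. All 10 were found in both tables, among 24623 genes in the male table and 24840 in the female table, with 23167 shared. Poly(A) RNA was sequenced from 16 mouse livers in 4 groups of 4 mice, with 1 library per mouse: floxed and LKO mice of each sex. The floxed mice carried loxP-flanked alleles of Matr3, which encodes matrin-3, a nuclear protein that binds RNA and DNA. The liver knockout mice (LKO) were littermates that also carried Cre recombinase under the albumin promoter. This promoter is active in hepatocytes, so the knockout is directed mainly at hepatocytes. Every mouse, control or knockout, was fed for 16 weeks, from 7 weeks of age, on food that drew 60% of its energy from fat, was kept in 12 hours of light and 12 hours of dark, and was fasted for 12 hours before tissue was taken. The clock time of collection is not given in the sources used here, and neither is the order in which the mice were taken.

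The mammalian clock is a feedback loop of transcription. A heterodimer of BMAL1 (the product of Arntl) with CLOCK, or with its close relative NPAS2, binds E-box sequences and switches on the Per and Cry genes. PER and CRY proteins return to the nucleus and repress the heterodimer, and the nuclear receptors REV-ERB alpha and beta (Nr1d1 and Nr1d2), also switched on through E-boxes, repress Arntl, Clock and Npas2 through a shared element with the ROR receptors. DBP, a transcription factor of the PAR bZIP family, carries the rhythm to D-box sequences in Per genes and in liver metabolic genes. In liver the transcripts of the activator arm (Arntl, Clock, Npas2) therefore peak at a time of day opposite to those of Dbp, Per3 and Nr1d1, and both feeding and glucocorticoids are known to shift this phase.

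The upstream sequences of the members show which of these elements lie next to the start sites. RefSeq windows of 250 bases (assembly GRCm38.p6) were at hand for 9 of the 10 members, in 13 windows. Both strands were searched for the E-box CACGTG, the E-prime box CACGTT, the D-box TTATGNAA, the ROR/REV-ERB cores TAGGTCA and TGGGTCA, and the cyclic AMP response element TGACGTCA. The 4 windows below are those of the members that held a match, printed 5′ to 3′ in the direction of the gene with each match in capitals; an E-prime box on the opposite strand reads AACGTG. Per3 (chr4:151044666-151044915, minus strand) held 2 D-boxes. Per1 (chr11:69098699-69098948, plus strand) held an E-box and a D-box, Cry1 (chr10:85185055-85185304, minus strand) an E-box and an E-prime box, and Nr1d1 (chr11:98775378-98775627, minus strand) an E-prime box.
Per3: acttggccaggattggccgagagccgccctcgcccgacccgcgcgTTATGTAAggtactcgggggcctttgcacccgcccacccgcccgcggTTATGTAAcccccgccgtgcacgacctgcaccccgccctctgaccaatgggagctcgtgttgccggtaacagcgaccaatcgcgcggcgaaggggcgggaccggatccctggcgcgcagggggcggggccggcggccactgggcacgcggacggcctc
Per1: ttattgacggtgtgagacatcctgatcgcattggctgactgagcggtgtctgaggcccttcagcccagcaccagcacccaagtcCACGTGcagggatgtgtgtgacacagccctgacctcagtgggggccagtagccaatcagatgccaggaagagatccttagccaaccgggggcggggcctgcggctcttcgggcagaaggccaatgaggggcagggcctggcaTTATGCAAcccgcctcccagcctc
Cry1: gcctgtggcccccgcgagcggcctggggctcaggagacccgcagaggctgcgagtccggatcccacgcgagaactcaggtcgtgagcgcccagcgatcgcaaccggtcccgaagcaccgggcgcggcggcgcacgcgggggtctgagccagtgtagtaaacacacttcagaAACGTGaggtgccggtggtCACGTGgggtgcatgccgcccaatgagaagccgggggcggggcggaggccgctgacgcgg
Nr1d1: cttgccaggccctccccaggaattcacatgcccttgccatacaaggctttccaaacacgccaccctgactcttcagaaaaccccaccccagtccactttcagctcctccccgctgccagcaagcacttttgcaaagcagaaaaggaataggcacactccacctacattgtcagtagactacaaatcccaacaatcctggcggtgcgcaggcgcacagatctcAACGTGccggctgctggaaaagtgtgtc
Among all 32851 windows of this length, 6.02% held the E-box, 3.85% the E-prime box, 3.07% the D-box, 5.38% a ROR/REV-ERB core and 1.55% the cyclic AMP response element. No member window held either of the last 2, which says only that these letters are not within these 250 bases. A match is a description of the sequence and not of binding. Outside the members, the window of Ciart, a repressor of the BMAL1 heterodimer that is itself an E-box gene, held 3 copies of the E-box, and both windows of Tef, the PAR bZIP relative of Dbp, held 1 copy.

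Libraries held between 30495505 and 36496193 counts, and levels are given as CPM, the counts of a gene scaled to the size of its library. Matr3 lay at 33.6 to 36.5 CPM in LKO and 52.9 to 60.9 CPM in floxed males, and at 37.1 to 40.3 against 52.9 to 64.7 CPM in females, so the labels and the targeted gene matched in all 16 livers (edgeR adjusted p = 0.000807 and 0.00437). Hepatocyte markers were high in all 4 groups, with 7 of the 8 listed markers matched in the tables, none at 0, and a summed level between 29980 and 75717 CPM. Their sum was 29980 to 47133 CPM in LKO females and 55420 to 65081 CPM in floxed females, where 2 of the 7 were lower (Alb and Ttr) and 1 higher (Hnf4a) in LKO. In bulk RNA, fewer cells of a type and less RNA per cell cannot be told apart. Female LKO 8 was the highest or the lowest of the 4 LKO females for all 10 members, though apart by Dixon's test for Arntl alone, and the main results in females are given with and without it. On the first principal component of the female libraries, which held 47.3% of the variance, it lay beside LKO 5.

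The members spanned a wide range of transcript levels, compared here as CPM per kilobase of exon. In floxed males Dbp was highest at 53.4 ± 13.9 CPM per kilobase (SD, n = 4 in this and each group below), followed by Nr1d1 at 30.1 ± 13.1, Nr1d2 at 16.9 ± 1.71, Per1 at 12.0 ± 2.90 and Per2 at 10.2 ± 3.39. Per3 lay at 4.62 ± 1.43, Cry1 at 2.81 ± 1.14 and Clock at 2.21 ± 0.240. Arntl, at 0.463 ± 0.198, and Npas2, at 0.134 ± 0.107, were lowest, and Npas2 rested on 3 to 147 counts per library over the 16 livers. Of the neighbours in that order, Dbp and Nr1d1 did not overlap between mice and neither did Clock and Arntl, while every other neighbouring pair did. Floxed females had the same order, with Dbp at 65.8 ± 20.1, Nr1d1 at 37.7 ± 10.2 and Npas2 again at 0.134 ± 0.138 CPM per kilobase. There Dbp and Nr1d1, Per1 and Per2, Per2 and Per3, Cry1 and Clock, and Arntl and Npas2 overlapped, and the other neighbours did not. In LKO females Nr1d1 (27.9 ± 6.96) stood level with Dbp (26.9 ± 15.7), and Clock (2.31 ± 0.646) stood level with Per3 (2.29 ± 1.36) and above Cry1 (1.27 ± 0.364) in the order of means.

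**Figure D1:**
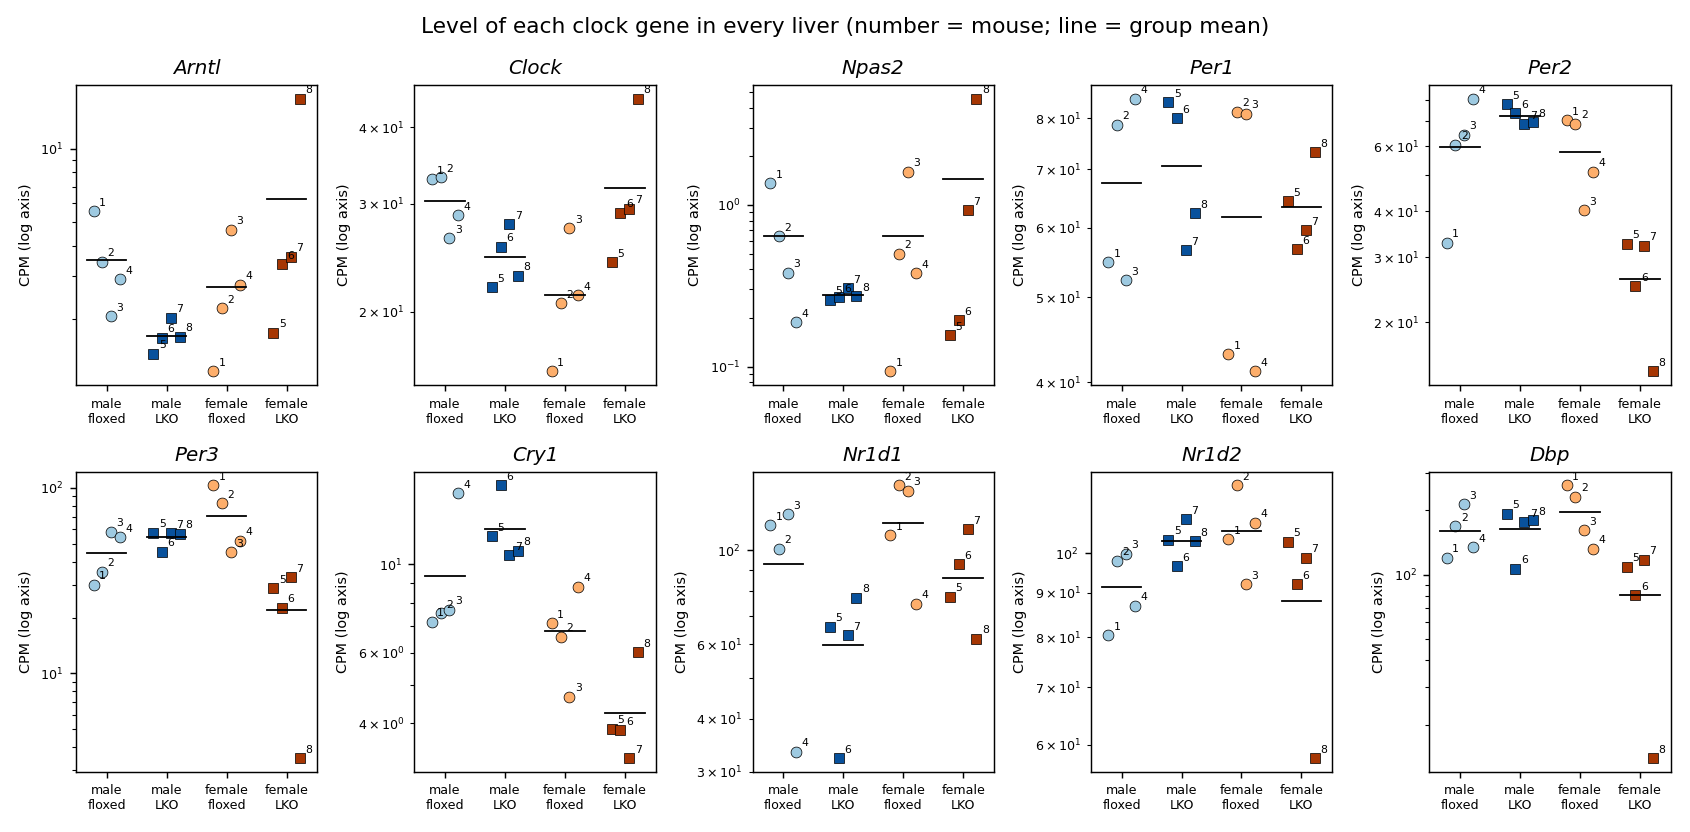
Level of each clock gene in CPM (log axis, scaled within each sex) in the 16 livers, grouped by sex and genotype; points are mice with their replicate number and lines are group means (n = 4). Female LKO 8 is the highest of the female LKO livers for Arntl (16.1 CPM), Clock and Npas2 and the lowest for Per2, Per3 (3.49 CPM), Nr1d2 and Dbp.

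On GRCm38 the activator genes lie at chr7:113207465-113314126 (Arntl, plus strand), chr5:76209868-76304792 (Clock, minus) and chr1:39193731-39363236 (Npas2, plus). The period genes lie at chr11:69095217-69109960 (Per1, plus), chr1:91415982-91459324 (Per2, minus) and chr4:151003652-151044665 (Per3, minus), and Cry1 at chr10:85131700-85185064 (minus). Nr1d1 lies at chr11:98767932-98775333 (minus), Nr1d2 at chr14:18204054-18239127 (minus) and Dbp at chr7:45705088-45710203 (plus). Values are whole-gene counts over annotated genes, so transcripts of 1 gene are not told apart.

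The first comparison asked whether the clock genes differed between LKO and floxed males. None of the 10 members passed an adjusted p of 0.05 (edgeR quasi-likelihood test, Benjamini-Hochberg over all 15355 genes tested), where 1.04% of all genes tested did. At an unadjusted p under 0.05 there were 4 (Arntl, Clock, Npas2 and Nr1d2), where 12.3% of all genes were, and DESeq2 called 1, Arntl, among 518 genes in all. Their median size of log2 fold change was 0.29 against 0.11 over all genes tested. Members also spread more between mice of the same group, with a median SD of log2 CPM of 0.513 against 0.205 over all genes. They varied together as well, as described below. Neither the counts nor the median size therefore shows that the members differed more between genotypes than other genes did.

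Among the activators in males, Arntl measured 1.44, 1.67, 2.02 and 1.69 CPM in LKO 5 to 8 and 5.55, 3.44, 2.05 and 2.91 CPM in floxed 1 to 4. The groups did not overlap, though the highest LKO and the lowest floxed value nearly met, and the floxed mice were spread over a wider range. Between the genotypes the log2 fold change was -1.04 (SE 0.28, edgeR adjusted p = 0.135), and with DESeq2 it was -1.03 with an adjusted p of 0.0142. With each library left out in turn it ranged from -1.22 to -0.72 in edgeR, with adjusted p from 0.0742 to 0.302. The highest floxed values, 5.55 and 3.44 CPM, were those of floxed 1 and 2, whose mouse numbers lie apart from the rest. Floxed 3 and 4, at 2.05 and 2.91 CPM, lay nearer to the LKO livers. Leaving out 1 library never removes both floxed 1 and 2, and the log2 fold change of Arntl without this pair is not given here. Arntl was the 1 member of 10 whose male groups did not overlap, where the groups of 8.14% of all genes tested did not. Clock, the partner of BMAL1, measured 21.9, 25.5, 27.8 and 22.9 CPM in LKO and 32.9, 33.1, 26.3 and 28.8 CPM in floxed males, overlapping in 1 LKO liver. Its log2 fold change was -0.30 (SE 0.10, edgeR adjusted p = 0.214). Floxed 1 and 2 were the highest floxed males for Clock as well, and its log2 fold change without them is not given here. Npas2, which can take the place of CLOCK, lay between 0.26 and 0.31 CPM in LKO and between 0.19 and 1.36 CPM in floxed males. The floxed range held the whole LKO range, and the log2 fold change was -1.22 with an SE of 0.52 (edgeR adjusted p = 0.381).

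Of the repressors in males, Per2 measured 77.9, 73.7, 68.7 and 69.6 CPM in LKO and 32.9, 60.4, 64.4 and 80.6 CPM in floxed livers. The LKO males lay close together and floxed 1 was far below the others. Per2 differed by 0.28 on the log2 scale (SE 0.21, edgeR adjusted p = 0.643), and by -0.0021 without floxed 1 and 2, the mice whose numbers lie apart from the rest. Per3 showed a like pattern, at 45.3 to 57.2 CPM in LKO and 30.1, 35.4, 58.0 and 54.1 CPM in floxed males. It differed by 0.28 on the log2 scale (SE 0.19, edgeR adjusted p = 0.605), and by -0.06 without the same pair of mice. Cry1, a cryptochrome that represses the BMAL1 heterodimer, lay between 10.5 and 15.8 CPM in LKO males. In floxed males it was 7.19, 7.54, 7.70 and 15.1 CPM, with floxed 4 at the level of the highest LKO liver. The log2 fold change was 0.39 (SE 0.24, edgeR adjusted p = 0.563). Per1, the period gene that answers fastest to hormones and feeding, overlapped fully between genotypes at 56.5 to 83.5 and 52.3 to 84.3 CPM.

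Nr1d1 measured 65.9, 32.3, 62.9 and 77.3 CPM in LKO 5 to 8 and 114, 101, 122 and 33.5 CPM in floxed 1 to 4. Within each male group a lone liver was low, LKO 6 and floxed 4, and these were also the livers with the highest Cry1. On average the log2 fold change was -0.64 (SE 0.36, edgeR adjusted p = 0.533). Nr1d2 ranged from 96.6 to 110 CPM in LKO and from 80.4 to 99.9 CPM in floxed males, 0.18 higher on the log2 scale with an SE of 0.08 (edgeR adjusted p = 0.392). Dbp, the output factor, overlapped at 107 to 193 and 121 to 214 CPM (log2 fold change 0.04, SE 0.21).

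In females 1 clock gene, the repressor Per2, passed the threshold. Per2 fell by 1.14 on the log2 scale (SE 0.25, edgeR adjusted p = 0.0248, fold 2.21), so 1 of 10 members was called where 9.29% of the 15432 genes tested were. At an unadjusted p under 0.05 there were 5 members (Per2, Per3, Cry1, Clock and Dbp), where 27.7% of all genes were, and DESeq2 called 3 (Per2, Clock and Cry1) among 2415 genes in all. Without LKO 8 there were 3 called, Per2, Per3 and Cry1, all lower, where 4.36% of all genes were called. Groups did not overlap for 3 of 10 members (Per2, Per3 and Dbp, all lower in LKO), where 15.9% of all genes tested did not overlap and 8.31% were lower without overlap. The members' median size of log2 fold change was 0.91 against 0.20 over all genes tested, and 0.47 against 0.19 without LKO 8. The limits given for males on such counts and sizes hold here as well.

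Per2 measured 32.6, 25.1, 32.2 and 14.7 CPM in female LKO 5 to 8 and 70.5, 69.0, 40.3 and 51.2 CPM in floxed 1 to 4. Every LKO liver was below every floxed liver, and LKO 8 was lowest. Without LKO 8 the fall was 0.95 with an edgeR adjusted p of 0.0324. The call was lost without LKO 6 (edgeR adjusted p = 0.0657), floxed 1 (0.0775) or floxed 2 (0.0731), with log2 fold changes of -1.12, -1.03 and -1.04.

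Per3, a clock output with 2 D-boxes in the window printed above, measured 28.8, 22.6, 32.98 and 3.49 CPM in LKO and 103, 82.4, 45.04 and 52.0 CPM in floxed females. No LKO value reached the floxed range, and LKO 8 lay far below the other 3. For Per3 the log2 fold change was -1.68 (SE 0.53, edgeR adjusted p = 0.0721), and without LKO 8 it was smaller in size but passed, at -1.33 with an adjusted p of 0.0334. Dbp measured 109, 80.5, 118 and 14.0 CPM in LKO and 262, 232, 161 and 132 CPM in floxed females, with no overlap and LKO 8 again lowest. The log2 fold change of Dbp was -1.29 (SE 0.51, edgeR adjusted p = 0.131), and -0.94 without LKO 8 (adjusted p = 0.0579). Dbp shares 539 exonic bases (18.01% of its exons) with Sphk2 on the opposite strand. Libraries were directional, per the labels, but the strand setting of the counting is not given in the sources used here. Sphk2, encoding a sphingosine kinase, was higher at 79.6 to 86.7 against 60.3 to 76.3 CPM in LKO females (0.32 on the log2 scale, edgeR adjusted p = 0.0493), the direction opposite to Dbp.

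Cry1 measured 3.88, 3.84, 3.27 and 6.03 CPM in LKO and 7.13, 6.59, 4.66 and 8.79 CPM in floxed females. The groups overlapped through LKO 8 and floxed 3. Cry1 differed by -0.67 on the log2 scale (SE 0.23, edgeR adjusted p = 0.0922), and by -0.89 without LKO 8 (adjusted p = 0.0443). Nr1d1 lay at 61.8 to 112 CPM in LKO and 74.8 to 142 CPM in floxed females (log2 fold change -0.43, SE 0.22, edgeR adjusted p = 0.236). Nr1d1 overlaps Thra by 263 exonic bases on the opposite strand (8.55% of its exons), and Thra, a thyroid hormone receptor, had a log2 fold change of -0.06 with an adjusted p of 0.813. Nr1d2 lay between 92.2 and 103 CPM in LKO 5 to 7, at 57.9 CPM in LKO 8 and between 92.2 and 120 CPM in floxed females (log2 fold change -0.27, SE 0.17, edgeR adjusted p = 0.319). Per1 overlapped fully, at 56.7 to 73.2 against 41.1 to 81.5 CPM.

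The activators in females did not pass. Clock measured 24.1, 29.0, 29.4 and 44.6 CPM in LKO and 16.0, 20.7, 27.4 and 21.3 CPM in floxed females, with floxed 3 above LKO 5. Its log2 fold change was 0.58 (SE 0.20, edgeR adjusted p = 0.0981), and 0.37 without LKO 8 (adjusted p = 0.211). Arntl measured 1.75, 3.35, 3.60 and 16.1 CPM in LKO and 1.21, 2.21, 4.66 and 2.76 CPM in floxed females. LKO 8 lay far above the other 3 LKO livers, which lay within the floxed range. The log2 fold change of Arntl went from 1.20 (SE 0.65, edgeR adjusted p = 0.259) to 0.10 without LKO 8. Npas2 was 0.16, 0.19, 0.93 and 4.55 CPM in LKO and 0.09, 0.50, 1.61 and 0.38 CPM in floxed females, and its log2 fold change went from 1.18 (SE 1.01) to -0.57 without LKO 8.

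**Figure D2:**
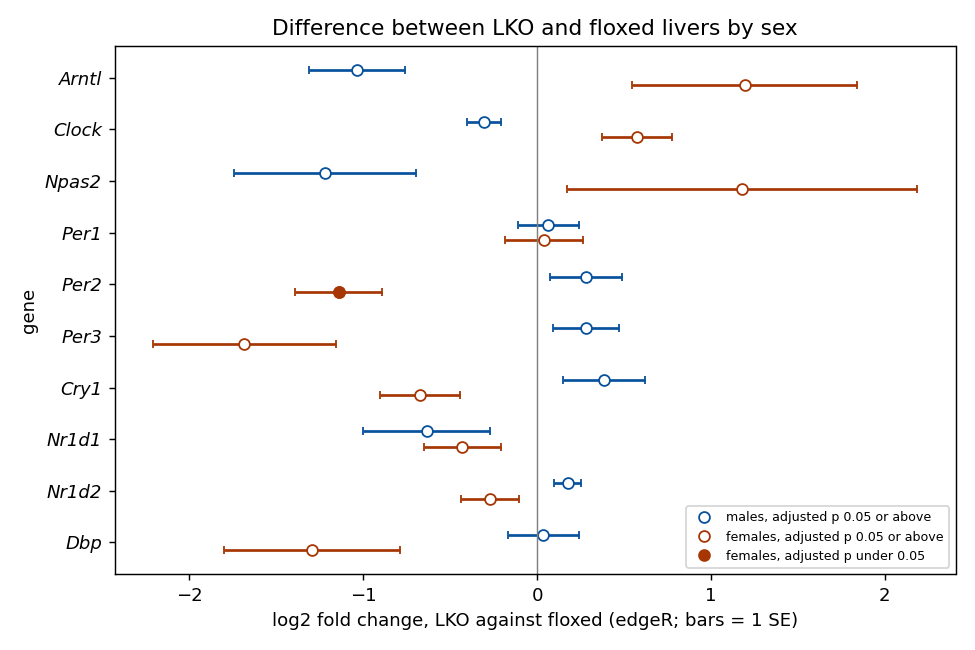
Log2 fold change of each clock gene, LKO against floxed, in males and females (edgeR; bars are 1 SE; 4 mice per group; filled points passed an adjusted p of 0.05). Per2 in females, at -1.14, is the filled point, and Per1 and Nr1d1 are the members with the same sign in both sexes. The signs of Per2, Per3 and Dbp in males turned without floxed 1 and 2, at -0.0021, -0.0569 and -0.0948.

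The difference between the sexes was tested directly, as the LKO effect in females minus that in males, in 1 fit of all 16 libraries. This contrast uses the same mice as both comparisons above. By edgeR, 2 of 10 members were called, where 4.42% of 16126 genes tested were, and 7 had an unadjusted p under 0.05, where 20.5% of all genes did. Since members varied together between mice, these are not counts of independent genes and cannot be read as an excess. For Clock the effect was 0.88 higher in females (SE 0.24, edgeR adjusted p = 0.0488), from -0.30 in males and 0.58 in females. For Per2 it was -1.42 (SE 0.36, edgeR adjusted p = 0.0351), from 0.28 and -1.14. Both calls sat near the threshold. Without LKO 8, Clock was at 0.67 with an adjusted p of 0.0764, Per2 kept its call at -1.23 (0.0472), and Per3 passed at -1.61 (0.0270). With each library left out in turn, edgeR adjusted p ranged from 0.026 to 0.097 for Clock and from 0.0189 to 0.0772 for Per2. Per3 (-1.96, adjusted p = 0.0741), Cry1 (-1.06, 0.0993) and Arntl (2.23, 0.116) did not pass. For the effect averaged over the sexes no member was called by edgeR, where 8.55% of genes tested were, and 3 had an unadjusted p under 0.05 (Per2, Per3 and Nr1d1), where 24.6% of all genes did, with 0 called by DESeq2.

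Floxed females and floxed males were compared for the level of the clock genes without the knockout, with the limit that each sex has its own count table. Clock was lower in floxed females by a log2 difference of -0.54 (SE 0.17, edgeR adjusted p = 0.0314), at 16.0 to 27.4 CPM against 26.3 to 33.1 CPM in floxed males, overlapping in floxed female 3. It was the 1 member of 10 called, where 22.9% of genes tested were. The call was lost without male floxed 1 or 2, or female floxed 1, 2 or 4, with edgeR adjusted p from 0.0616 to 0.0940. The other 9 members did not pass, with Per3 at 0.64 (SE 0.43) and Cry1 at -0.50 (SE 0.25).

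Mice of the same group differed more in these genes than in most of the transcriptome. The SD of log2 CPM within groups had a median of 0.513 over the members and 0.205 over all 16126 genes tested. Npas2 (SD 1.35), Per3 (0.839), Arntl (0.833) and Dbp (0.805) lay at percentiles 99.9, 98.4, 98.3 and 98.0 of all genes. These SDs and percentiles include female LKO 8 and were not computed without it. In the groups other than LKO females the SD was 0.369 to 0.461 for Dbp and 0.163 to 0.562 for Per3. Nr1d1 (0.592) was at percentile 92.2, while Clock (0.268) and Nr1d2 (0.224) were at 60.9 and 53.5. Among the 4 groups, LKO males had the smallest SD for Arntl (0.194), Npas2 (0.0862), Per2 (0.0829), Per3 (0.163), Clock (0.155), Cry1 (0.265) and Nr1d2 (0.0741). LKO females had the largest for Arntl (1.34), Npas2 (2.05), Per3 (1.504), Dbp (1.45), Clock (0.373) and Nr1d2 (0.387). The latter rests on LKO 8, without which these SDs were 0.562, 1.21, 0.280, 0.293, 0.164 and 0.0827. Each was then below that of floxed females (0.781, 1.41, 0.562, 0.461, 0.316 and 0.156).

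This variation was shared between members. After group means were removed, log2 CPM of Arntl was compared with each of the other 9 members over 16 livers by permutation within groups (100000 resamples, two-sided, Benjamini-Hochberg over the 9). Livers with more Arntl than their group had more Clock (Pearson r = 0.951, Spearman rho = 0.909, permutation p = 4e-05, adjusted p = 0.00036) and more Npas2 (r = 0.912, rho = 0.800, adjusted permutation p = 0.00333). They had less Per3 (r = -0.905, rho = -0.926), less Per2 (r = -0.848, rho = -0.826), each with an adjusted permutation p of 0.00333, less Dbp (r = -0.844, rho = -0.835, adjusted permutation p = 0.0123) and less Nr1d2 (r = -0.830, adjusted permutation p = 0.0217, and rho = -0.621, 0.0735). Per1 (r = 0.272), Cry1 (0.121) and Nr1d1 (-0.0765) showed no relation past the threshold, with adjusted permutation p of 0.397, 0.756 and 0.756.

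Without the 2 livers farthest from the median of Arntl, female LKO 8 and LKO 5, r stayed at 0.916 for Clock, 0.825 for Npas2, -0.836 for Per3 and -0.786 for Per2, with adjusted permutation p from 0.00909 to 0.0366. The relations with Dbp (r = -0.595, adjusted permutation p = 0.111) and Nr1d2 (-0.517, 0.289) no longer passed. Within males alone, where those livers play no part, r over 8 livers was 0.783 for Clock, 0.758 for Npas2, -0.818 for Per3 and -0.803 for Per2. For Dbp it was -0.562 and for Nr1d2 -0.600. None of these male relations passed (adjusted permutation p from 0.156 to 0.451), and they are given as descriptions. Within females r was 0.982, 0.938, -0.919, -0.925, -0.885 and -0.867 in the same order. There Dbp and Nr1d2 did not pass (adjusted permutation p = 0.0564 and 0.0604). Among 10886 genes with a symbol and a mean of 1 or more in log2 CPM, Clock was the gene most like Arntl over the 16 livers, followed by Clpx (r = 0.948), Trim2 (0.925), Lgalsl (0.919) and Aasdhppt (0.918). The most opposite were Wee1 (-0.922), encoding a mitotic kinase under E-box control, Per3 (-0.905), Plcg1 (-0.891), Hes6 (-0.881) and Whamm (-0.865).

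Per3 (r = 0.951) and Nr1d2 (0.908) were the genes most like Dbp, followed by Tef (0.904), Miip (0.888) and Cebpa (0.887). Among the 5 most opposite were Dpp9 (-0.929), Cd36 (-0.923), Cdkn1a (-0.923) and Klf3 (-0.922). These are descriptions over the same 16 livers with group means removed, and female LKO 8 weighs on them, with r between Dbp and Per3 at 0.773 and between Dbp and Nr1d2 at 0.638 without it.

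Cry1 and Nr1d1 ran in opposite directions. Over the 16 livers their r was -0.908 (rho = -0.791, permutation p = 0.00032, adjusted p = 0.0072 over all 45 pairs of members), a relation noticed after the values were seen. It was -0.922 without female LKO 8, -0.974 in males and -0.860 in females. Without male floxed 4 and female LKO 8, the 2 livers farthest from the median of Cry1, it was -0.826. The male value leaned on floxed 4 (Cry1 0.753 and Nr1d1 -1.31 from the group mean) and LKO 6 (0.385 and -0.811). Male LKO 6 was still part of the value of -0.826, and r without both of these males was not computed. Of the 45 pairs, 20 had an adjusted permutation p under 0.05 by Pearson's r, 10 positive and 10 negative, and 14 by Spearman's rho. Without female LKO 8 there were 3 by Pearson's r, all among the 20: Arntl with Clock, Per2 with Per3, and Cry1 with Nr1d1. With all 16 livers, Cry1 passed with no other member and Per1 with none, while Nr1d1 also passed with Dbp by r (0.462, adjusted permutation p = 0.0367) and not by rho (0.362, 0.296).

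**Figure D3:**
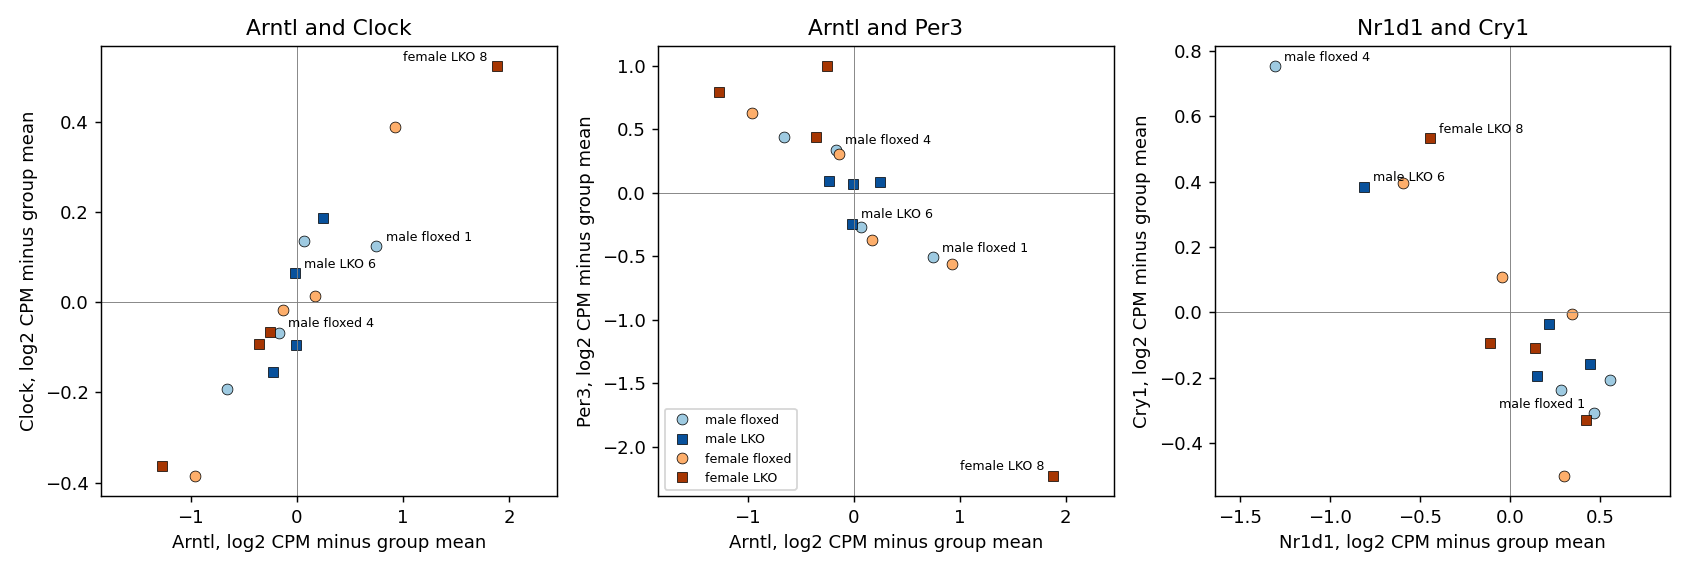
Deviation of log2 CPM from the group mean in the 16 livers for Arntl against Clock (r = 0.951), Arntl against Per3 (r = -0.905) and Nr1d1 against Cry1 (r = -0.908); colour and shape give sex and genotype. The first pair rises together, the others run in opposite directions, and female LKO 8 is the farthest point for Arntl.

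Other clock factors, from a list of 25 with 24 tested, were followed in the same fits. In males 0 passed by edgeR, with 3 at an unadjusted p under 0.05 (Nfil3 and Bhlhe40 among them), a share near the 12.3% of all genes, and 1 called by DESeq2. In females 1 was higher and 3 were lower (Ciart and Hlf among them), where 9.29% of all genes tested were called. The list's median log2 fold change was -0.07 against 0.00 over all genes tested. Ciart fell by 2.02 (SE 0.42, edgeR adjusted p = 0.0201), from 12.4 to 36.8 CPM in floxed to 2.90 to 9.13 CPM in LKO females, with no overlap. Hlf, the third PAR bZIP factor, fell by 0.71 (SE 0.15, edgeR adjusted p = 0.0205), at 47.0 to 69.3 against 81.0 to 112 CPM. Csnk1d, encoding a kinase that marks PER proteins for degradation, rose by 0.33 (SE 0.08, edgeR adjusted p = 0.0298), at 85.8 to 94.2 against 64.2 to 76.7 CPM. Without LKO 8, Hlf (-0.72, edgeR adjusted p = 0.0483) kept its call, and Ciart (-1.90, adjusted p = 0.0526) and Csnk1d (0.31, 0.0715) did not. Ciart, Hlf and Csnk1d each lost the call without at least 4 of the 8 libraries taken 1 at a time, with edgeR adjusted p up to 0.0598, 0.0639 and 0.0870.

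The difference between the sexes was called for 3 of the 24 genes of this list tested, where 4.42% of all genes were. Among the 3 were Hlf (-0.81, SE 0.19, edgeR adjusted p = 0.0228) and Nfil3 (1.43, SE 0.36, 0.0346). Nfil3 encodes a repressor that binds the D-box in competition with DBP. It measured 26.2, 35.4, 16.1 and 55.5 CPM in LKO and 15.5 to 20.0 CPM in floxed females, and 8.39 to 12.8 against 13.8 to 18.1 CPM in males. Its LKO values were lower without overlap in males and higher in 3 of 4 livers in females, with neither sex past the threshold alone (log2 fold changes -0.53 and 0.90). Without LKO 8 the difference was 1.07 (edgeR adjusted p = 0.0443), and the call was lost in 10 of the 16 fits that left out 1 library, with adjusted p up to 0.0728. With limma-voom it was 1.31 with an adjusted p of 0.0730.

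Of 20 rhythmic outputs of the liver clock, 19 were tested in males and 20 in females. None passed in males by edgeR, where 3 had an unadjusted p under 0.05 (Gys2, Wee1 and Elovl3), against 12.3% of all genes, and DESeq2 called 2 higher. In females 4 were lower and none higher, where 9.29% of all genes tested were called in either direction. The list median was -0.30 against 0.00 over all genes tested. Wee1 fell by 1.56 (SE 0.37, edgeR adjusted p = 0.0309), at 9.41, 5.61, 8.49 and 2.41 CPM in LKO and 23.6, 21.7, 10.9 and 20.0 CPM in floxed females. Inmt, a methyltransferase, fell by 2.50 (SE 0.61), Rgs16, a regulator of G protein signalling, by 1.35 (SE 0.33) and Nampt, the enzyme that sets the pace of NAD salvage, by 0.72 (SE 0.18), with edgeR adjusted p of 0.0340, 0.0351 and 0.0360. Without LKO 8 only Wee1 of these 4 kept its call (-1.28, adjusted p = 0.0329), and without LKO 6, floxed 1 or floxed 2 there were 0 calls by edgeR, with adjusted p of Wee1 up to 0.0901. With robust dispersion the calls of Inmt (0.0827), Wee1 (0.0609) and Rgs16 (0.0670) were lost in edgeR as well. The difference between the sexes was called for 2 of the 20 outputs, where 4.42% of all genes were. These were Wee1 (-2.13, SE 0.44, edgeR adjusted p = 0.0145) and Nampt (-0.98, SE 0.26, 0.0394). The call of Wee1 held with each of the 16 libraries left out in turn (-1.86 without LKO 8), and that of Nampt was lost without LKO 8 (-0.86, adjusted p = 0.0648) and in 11 of 16 such fits in all.

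**Figure D4:**
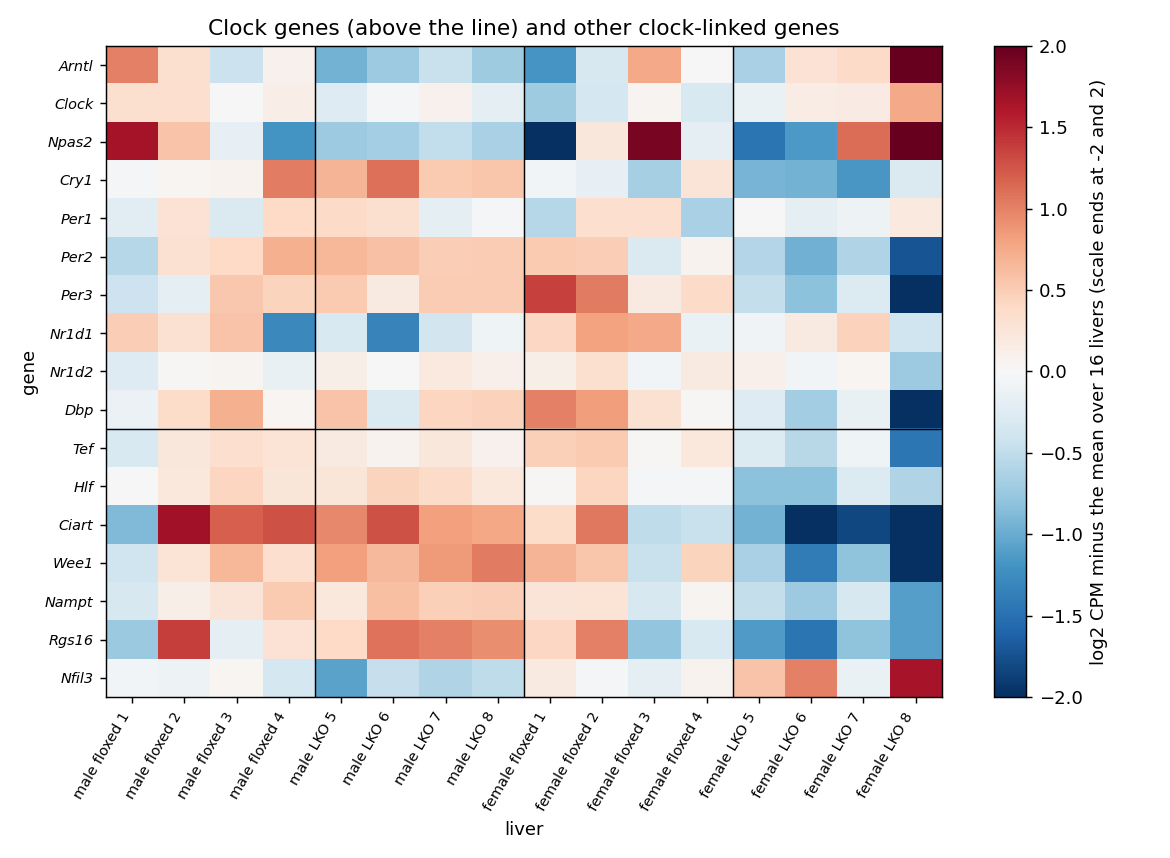
Log2 CPM of the 10 clock genes (above the line) and of 7 other clock-linked genes (below it) in each of the 16 livers, minus the gene's mean over all livers, with red for higher and blue for lower and the scale ended at -2 and 2. The female LKO livers, at the right, are low for Per2, Per3, Wee1 and Ciart, and LKO 8 is the most extreme for Arntl, Per3 and Dbp.

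Genes that respond to cues known to act on the clock were counted in the same fits. Over all genes tested in females, 9.29% were called (4.36% without LKO 8) and 27.7% had an unadjusted p under 0.05. In females, fasting genes had 4 of 15 members higher and 0 lower (Igfbp1, Angptl4, Pck1 and Ppargc1a), and glucocorticoid-responsive genes 3 of 12 higher (Mt1, Tat and Mt2) and 1 lower (Hsd11b1). The summed level of the glucocorticoid list was 4713 to 8734 CPM in LKO and 2507 to 4535 CPM in floxed females, and that of the fasting list 14501 to 23130 against 12833 to 15759 CPM. In both lists LKO 8 was the highest liver. Without it the LKO sums ended at 6902 and 16624 CPM, and the calls were 1 of 15 fasting genes higher (Igfbp1) and, of 12 glucocorticoid genes, 1 higher (Mt1) and 1 lower (Hsd11b1). Acute-phase genes had 18 of 20 members higher (16 without LKO 8), with sums of 71188 to 157131 CPM in LKO and 26573 to 43986 CPM in floxed females, and here LKO 6 was highest. Of genes responsive to body temperature 1 of 10 was higher, Hspa5, a share near that over all genes, and its call was lost without LKO 8. In males 0 members of these 4 lists were called by edgeR. At an unadjusted p under 0.05 there were 3 fasting, 4 acute-phase and 0 glucocorticoid or temperature genes, where 12.3% of all genes were. Sinusoidal endothelial markers were lower for 4 of 6 members in LKO females, with sums of 141 to 183 against 206 to 217 CPM, and stellate cell markers for 2 of 6, at 279 to 306 against 315 to 384 CPM. Kupffer cell markers had 0 of 6 called by edgeR, with 1 at an unadjusted p under 0.05 (Clec4f). Neutrophil markers had 0 of 5 called, with 1 at an unadjusted p under 0.05 (Csf3r), a median log2 fold change of 1.30 and sums of 27.2 to 110 against 11.48 to 74.0 CPM. Cholangiocyte markers had 1 of 5 lower (Epcam), with sums of 27.5 to 40.1 against 35.7 to 53.1 CPM. Without LKO 8, 3 sinusoidal markers (Oit3, Fcgr2b and Clec4g) and 2 stellate markers (Reln and Lrat) were called lower, and the calls of Alb, Ttr, Hnf4a and Epcam were lost. The part of these lists and cell types in the clock gene levels was not tested.

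Cdkn1a, Clpx and Tef were picked above for following Arntl or Dbp over livers that include LKO 8, so their distance there is part of that choice and is given as values only. Cdkn1a, encoding the cell cycle inhibitor p21, measured 148 CPM there and 8.48 to 11.8 CPM in LKO 5 to 7. Clpx, which ran with Arntl, measured 350 CPM against 84.3 to 117 CPM. Tef was at 75.0 CPM in LKO 8 and at 139 to 193 CPM in LKO 5 to 7. Over all genes tested in females, 1.54% stood apart in LKO 8 by Dixon's criterion, within the range of 0.791% to 3.40% over the 8 female libraries.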

How the data were processed

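Whole-number counts per gene were deposited by the authors, 1 table per sex with 8 libraries each, with no normalization per the file headers. Per the submitters' processing notes the genome build is mm10. The aligner, counting program, annotation and strand setting are not given in the sources used here. RNA came from TRIzol extraction of liver and directional poly(A) libraries, per the labels' protocols. Symbols and positions came from a GRCm38 annotation, and 26 male identifiers (0.0289% of counts) and 28 female (0.0349%) had no symbol.

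Each sex was fitted alone, and all 16 libraries were fitted together for the difference between the sexes, their average and floxed females against males. In R 4.3.3, edgeR 4.0.16 was run with filterByExpr (minimum count 10, minimum total 15), TMM scaling and its two-sided quasi-likelihood test. Benjamini-Hochberg adjustment ran over all genes tested, with 0.05 as threshold. CPM were scaled within each sex by TMM. Log2 CPM for correlations used a prior count of 2 over 16 libraries. Correlations used scipy 1.17.1. The procedure was tested on simulated data.

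Groups and replicate numbers came from sample titles. p-values of the fits set a difference between groups against the spread between mice of the same group. Those of the correlations come from permutation of mice within groups. No pair of libraries within a group agreed within sampling noise (smallest chi-square per degree of freedom 13.7). Intervals are not given for CPM, and the totals of 30495505 to 36496193 counts limit the precision of Npas2 most.

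The members and gene lists were chosen with earlier results of these data known. All members are described. From the other lists at most 6 called genes per list and comparison are named, by smallest p, and the 5 genes most like and most opposite to Arntl and to Dbp. Genes named outside this rule (Tef, Thra, Sphk2, Bhlhe40, Gys2, Elovl3, Clec4f, Csf3r and uncalled values of Nfil3 and Wee1) were chosen after their values were seen. Alternatives were DESeq2 1.42.0, limma-voom 3.58.1, upper quartile and median-of-ratios scaling, no filter, 1 CPM in 4 libraries, robust dispersion, the 16-library fit, a block for the replicate number, omission of each library, of male floxed 1 and 2 and of female floxed 4 and LKO 7. The values of lists, spread and correlations without female LKO 8 and the relations over all 45 pairs were added after the data were seen. Of the called or most opposite genes, 2 are not reported here.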

Additional observations from a re-analysis of the deposited data

Results flagged for a closer look

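Within groups of 4 livers, 3 of 40 combinations of a clock gene and a group held a liver apart from the other 3 by Dixon's test, and chance gives about 1 in 20. Arntl was at 16.1 CPM in female LKO 8, the highest of its group. Cry1 was at 15.1 CPM in male floxed 4, the highest, and Per3 at 45.3 CPM in male LKO 6, the lowest.

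A difference of the knockout effect between the sexes was called in 1 edgeR fit of all 16 libraries for Clock (log2 difference 0.88, female minus male, adjusted p = 0.0488) and Per2 (-1.42, 0.0351). Among other clock-linked genes it was called for Hlf (-0.81, 0.0228), Nfil3 (1.43, 0.0346), Wee1 (-2.13, 0.0145) and Nampt (-0.98, 0.0394). Only the call of Wee1 held with each library left out in turn (edgeR adjusted p up to 0.0340). In those fits it rose to 0.0970 for Clock, 0.0772 for Per2, 0.0521 for Hlf, 0.0728 for Nfil3 and 0.0844 for Nampt.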

How the results depend on the processing

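In males DESeq2 called 1 of the 10 clock genes, Arntl, where edgeR called 0, and the count was 0 under the other alternatives and without any 1 library. In females the 1 call became 3 with DESeq2 (Per2, Clock and Cry1), 2 with no filter, 4 in the 16-library fit (Per2, Clock, Per3 and Dbp), 3 without floxed 4 and LKO 7 (a choice of the livers nearest the other genotype, which by construction widens the gap), and 0 to 3 without any 1 library. For the difference between the sexes 2 calls became 1 with no filter, 3 with DESeq2, and 0 to 3 without any 1 library. For the average effect 0 became 0 to 1 and for floxed females against males 1 became 0 to 1 without any 1 library. In the female DESeq2 and 16-library fits adjusted p also fell for the called genes of the other clock lists. For Hlf it went from 0.0205 in the main edgeR fit to 0.00045 and 0.00236, and for Inmt from 0.0340 to 0.00592 and 0.00307. The share of all genes called in the 16-library fit is not given here, so its 4 calls stand without a background. Counts over all genes moved as well, from 1433 in females in the main fit to between 396 and 2300 without any 1 library. For the difference between the sexes they went from 713 to between 407 and 1435. A shift in the count of members is therefore not a result about the clock genes alone.

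With the replicate block, which applies to the 16-library fit, the difference between the sexes had 0 calls (Clock 0.87, edgeR adjusted p = 0.0922; Per2 -1.51, 0.0682) and floxed females against males 0 (Clock -0.56, 0.0511), and the difference of Nampt lost its call (-1.02, 0.0838). The numbers tie no male to a female in the labels, and the correlation of deviations of same-numbered mice was between -0.119 and 0.130, so they share only a number.

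Signs turned only for values that did not pass. In males without floxed 1 and 2 the log2 fold changes were -0.0021 for Per2, -0.0569 for Per3 and -0.0948 for Dbp. Per1 was -0.0813 in females without floxed 4 and LKO 7, and its sex difference was 0.0361 with limma-voom and 0.0328 with the replicate block. Without any 1 library, ranges were -0.0374 to 0.19 for Per1 and -0.0773 to 0.21 for Dbp in males, -0.11 to 0.20 for Per1 and -0.57 to 2.15 for Npas2 in females, and -0.18 to 0.14 for Per1 and -0.0013 to 0.49 for Nr1d1 in the sex difference. The correlations of Arntl with Cry1 and Nr1d1 became -0.385 and 0.121 without the 2 farthest livers and -0.384 and 0.176 without female LKO 8. The cause of these changes was not tested. All-gene counts without any 1 library ranged from 69 to 179 in males and 396 to 2300 in females. Npas2, at 3 to 147 counts, was limited most by depth.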
